A study of Mus musculus with 48 samples.

Results

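The glutathione and NRF2 antioxidant genes were followed as a set of 36 genes chosen by symbol for their known roles, from cystine uptake and glutathione synthesis to conjugation, peroxide removal, NADPH supply and the NRF2 switch itself. Of these 36 genes, 31 had a probe set annotated to that gene alone, out of 18964 genes measured this way, and the brightest such probe set was used. Prdx1, Tkt and Ftl1 had only probe sets shared with other symbols, and Prdx6 and G6pdx had no probe set listed under their symbol alone, so these 5 genes were not analysed. Gpx2, a glutathione peroxidase best known from the gut, was too dim to pass the filter on low values, which left 30 genes among the 11565 genes tested.

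The arrays measured RNA from 13 ex vivo sub-clones of 4T1, a mammary carcinoma line from BALB/c mice, and from the 2 parental reporter lines they were grown from. There were 3 TV-LuM sub-clones from lung metastases after tail vein injection (days 14, 14 and 38), whose reporter the labels do not give. There were 4 AxLN-LuM sub-clones from lung metastases that followed micro-injection of an axillary lymph node (days 14, 14, 36 and 43) and 4 AxLN sub-clones from the lymph node tumors themselves (days 7, 7, 14 and 14), all from 4T1-mCh/rL cells carrying mCherry and renilla luciferase. There were 2 MFP sub-clones from mammary fat pad tumors at day 28, from 4T1-GFP/fL cells carrying GFP and firefly luciferase. The references were the parental 4T1-mCh/rL and 4T1-GFP/fL lines with 4 arrays each. Each sub-clone is labelled by 1 tumor or metastasis, was selected in culture with 6-thioguanine, and was harvested as an untreated culture before confluence, so the values describe cultures after passage and not cells within the tumor. Whether the parental lines went through the same selection is not given in the sources used here, so selection and growth in the mouse cannot be told apart.

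NRF2, encoded by Nfe2l2, is a transcription factor that KEAP1 marks for degradation in resting cells. When oxidants or electrophiles modify KEAP1, or when p62, encoded by Sqstm1, sequesters it, NRF2 accumulates and binds the antioxidant response element of genes for glutathione synthesis, conjugation, thioredoxin recycling and NADPH supply. Tumors often raise this program, and the NRF2 protein level is set mostly after transcription, so the mRNA of Nfe2l2 is not a measure of its activity.

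The core of the antioxidant response element reads TGACNNNGC, where N is any base. It was searched on both strands of RefSeq promoter windows of GRCm38.p6, each of 300 bases from 250 before the transcription start to 50 after it. Among the 30 of the 36 genes with such a window, 11 held the motif (36.7%). Of the genes measured on a probe set of their own, 2318 of 15359 with a window held it (15.1%). The 30 include genes without such a probe set, so the sets are not alike. Counted by window it was in 12 of 41 (29.3%) against 12.4% of 32851 windows in all. The 36 genes were chosen for known roles, NRF2 targets among them, so the higher share is no result of these data. The stretch of 250 bases before the start of Gclm, the modifier subunit of the enzyme that limits glutathione synthesis, is shown. Gclm was chosen because it was lower than the mean of both parental lines in every sub-clone. Its motif, in capitals, lies on the opposite strand at position -134 from the transcription start, in chr3:122245307-122245556 on the plus strand.
Gclm: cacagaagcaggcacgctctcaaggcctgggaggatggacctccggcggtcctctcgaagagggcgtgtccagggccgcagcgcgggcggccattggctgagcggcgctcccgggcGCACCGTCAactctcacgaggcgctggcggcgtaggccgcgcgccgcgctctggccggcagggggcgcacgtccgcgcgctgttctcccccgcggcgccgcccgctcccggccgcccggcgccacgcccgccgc
The same motif with 10 bases on each side is shown for other members whose values follow, written along each gene's own strand, with the motif, or its reverse complement, in capitals. The motif begins after the transcription start in Srxn1 and Pgd, at positions 28 and 3, and before it in the others.
Txnrd1 (chr10:82859104-82859132, plus strand): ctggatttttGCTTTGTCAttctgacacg
Srxn1 (chr2:152105542-152105570, plus strand): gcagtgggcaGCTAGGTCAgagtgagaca
Mgst1 (chr6:138140461-138140489, plus strand): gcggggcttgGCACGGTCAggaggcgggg
Pgd (chr4:149166061-149166089, minus strand): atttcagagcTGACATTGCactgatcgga
Me1 (chr9:86695902-86695930, minus strand): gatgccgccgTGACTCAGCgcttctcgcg
Nfe2l2 (chr2:75704885-75704913, minus strand): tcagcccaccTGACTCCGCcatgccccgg
A match of so short a motif describes the window and not binding, and the windows of Nqo1, Slc7a11, Mgst2 and Osgin1 held no match.

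All values below are log2 intensities relative to the parental arrays of their plate, both lines weighted equally, and averaged over the arrays of a line, so that 0 is the parental level and 1 a 2-fold difference. The 7 arrays whose titles mark them as removed were kept in these descriptions and left out of the comparisons of groups. They are the arrays of AxLN tumor 1 day 14 and AxLN-LuM 5 day 14 and 1 array of MFP tumor 1, and these sub-clones stood at the ends of the series, since AxLN tumor 1 day 14 had the smallest share of all genes called against the parental lines (33.1%) and AxLN-LuM 5 day 14 the largest (63.4%). All 6 markers of mammary carcinoma cells passed the filter, which is set on the mean of all 48 arrays, and none fell below 4.77 log2 intensity. Of the leukocyte markers only Cd68 and Csf1r passed it. Cd68 lay between 5.1 and 8.14 log2 intensity, Ptprc between 1.87 and 2.86, and Lyz2 reached 4.4. The leukocyte markers summed to 109.6 to 343.2 units in AxLN arrays and 64.8 to 294.6 in AxLN-LuM arrays. In parental arrays the sum was 121.6 to 148.0 for 4T1-mCh/rL and 86.3 to 111.8 for 4T1-GFP/fL. Col1a1 was the 1 fibroblast marker of 4 above the filter, in every group, the parental lines included. No marker of endothelium or lung epithelium passed. The plate is stated in the labels for 6 arrays, and for the others it follows the order of the arrays, 24 on each plate, and the profile by which parental arrays of the plates differ split the other arrays in the same way.

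All 30 antioxidant genes tested differed among the 13 sub-clones by limma's moderated F-test across all genes (adjusted p under 0.05), where 88.7% of all genes did. The arrays of a sub-clone are its replicates in this test, which therefore speaks of these culture lines and not of tissues. The range from the lowest to the highest sub-clone had a median of 1.10 over the 30 genes and 0.87 over all genes tested, and without both sub-clones marked removed the medians were 0.99 and 0.75. The antioxidant genes also varied less between arrays of one sub-clone, with a median SD of 0.08 against 0.11 for all genes, and the part of this in the share called was not tested. The ranges ran from 5.07 for Nqo1 down to 0.34 for Sod1, the cytosolic superoxide dismutase. In bulk RNA a lower level in every cell and a smaller share of expressing cells cannot be told apart.

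**Figure D1:**
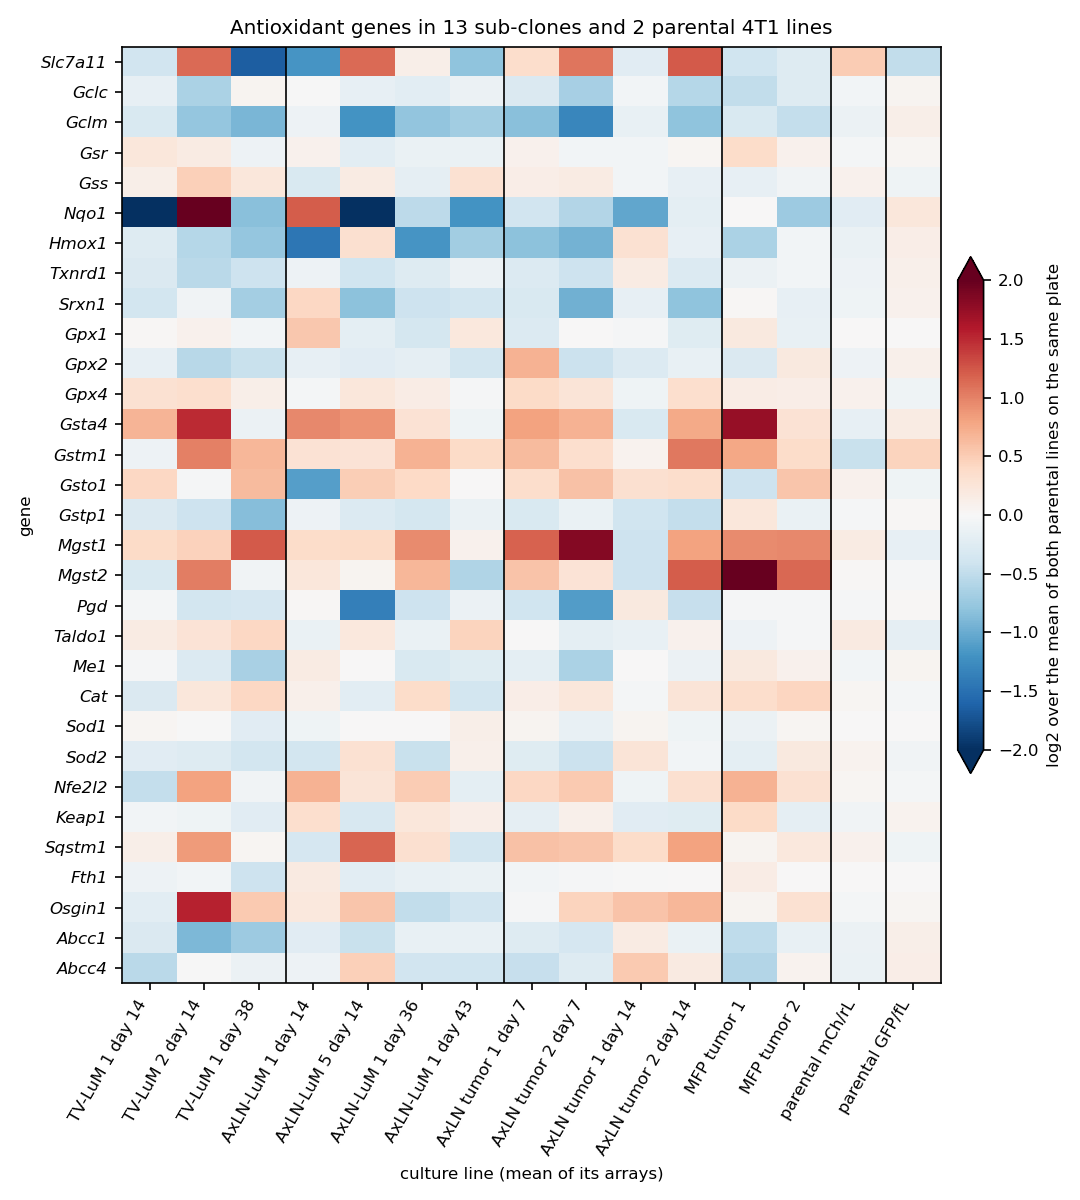
Log2 values relative to the parental arrays of the plate (colour, capped at 2 in either direction) for the 31 measured genes in rows and the 13 sub-clones and both parental lines in columns, each the mean of its arrays. Nqo1 ran from -2.76 to 2.31, while Gclm lay below 0 in every sub-clone and Mgst1 above 0 in all but AxLN tumor 1 day 14.

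The mRNAs of the NRF2 switch were above the parental level in some sub-clones and below it in others. Nfe2l2 stood at -0.48, 0.80 and -0.07 in TV-LuM 1 day 14, 2 day 14 and 1 day 38, and at 0.70, 0.25, 0.50 and -0.19 in AxLN-LuM 1 day 14, 5 day 14, 1 day 36 and 1 day 43. It stood at 0.42, 0.53, -0.09 and 0.32 in AxLN tumor 1 day 7, tumor 2 day 7, tumor 1 day 14 and tumor 2 day 14, and at 0.69 and 0.31 in MFP tumors 1 and 2, against 0.04 in parental 4T1-mCh/rL and -0.04 in parental 4T1-GFP/fL. It was called higher than the parental lines in 9 sub-clones and lower in 2, and the highest and the lowest sub-clone were both TV-LuM at day 14. Sqstm1, whose protein p62 binds KEAP1, was called higher in 9 and lower in 2, from 1.16 in AxLN-LuM 5 day 14 and 0.85 in TV-LuM 2 day 14 down to -0.37 in AxLN-LuM 1 day 43. Keap1 had a narrow range of 0.70, from 0.39 in MFP tumor 1 to -0.32 in AxLN-LuM 5 day 14, and was called higher in 3 and lower in 4.

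Nqo1, the quinone reductase that is among the best known NRF2 targets, had the widest spread of all 30 genes, 5.07 on the log2 scale, at percentile 99.7 of the ranges of all genes. It stood at -2.76, 2.31 and -0.83 in TV-LuM 1 day 14, 2 day 14 and 1 day 38. It stood at 1.21, -2.43, -0.52 and -1.20 in AxLN-LuM 1 day 14, 5 day 14, 1 day 36 and 1 day 43. It stood at -0.38, -0.59, -1.04 and -0.19 in AxLN tumor 1 day 7, tumor 2 day 7, tumor 1 day 14 and tumor 2 day 14, and at 0.00 and -0.72 in MFP tumors 1 and 2, against -0.22 in parental 4T1-mCh/rL and 0.22 in parental 4T1-GFP/fL. Only TV-LuM 2 day 14 and AxLN-LuM 1 day 14 were called higher than the parental lines, and 9 sub-clones were called lower. The extremes were both lung metastases after tail vein injection at day 14. The 3 Nqo1 arrays of TV-LuM 2 day 14 read 454.5, 459.3 and 468.6 intensity units, and those of TV-LuM 1 day 14 read 16.1, 16.4 and 10.1, while the parental 4T1-mCh/rL arrays read 74.5 to 89.0 and the parental 4T1-GFP/fL arrays 105.7 to 111.5. The arrays of TV-LuM 1 day 14 were close to the median of all probe sets on an array, 8.53 to 9.15 units, so the size of the difference at the low end is uncertain. The arrays of either sub-clone did not overlap with any parental array, and the 2 sub-clones were on different plates, each with its own parental arrays.

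Hmox1, heme oxygenase 1, was not ordered like Nqo1. It stood at -0.26, -0.57 and -0.77 in TV-LuM 1 day 14, 2 day 14 and 1 day 38, and at -1.44, 0.32, -1.18 and -0.70 in AxLN-LuM 1 day 14, 5 day 14, 1 day 36 and 1 day 43. It stood at -0.82, -0.95, 0.30 and -0.17 in AxLN tumor 1 day 7, tumor 2 day 7, tumor 1 day 14 and tumor 2 day 14, and at -0.64 and -0.06 in MFP tumors 1 and 2, against -0.14 in parental 4T1-mCh/rL and 0.14 in parental 4T1-GFP/fL. The 2 sub-clones called higher were both among those marked removed, and 9 were called lower. AxLN-LuM 1 day 14 thus held the second highest Nqo1 and the lowest Hmox1.

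**Figure D2:**
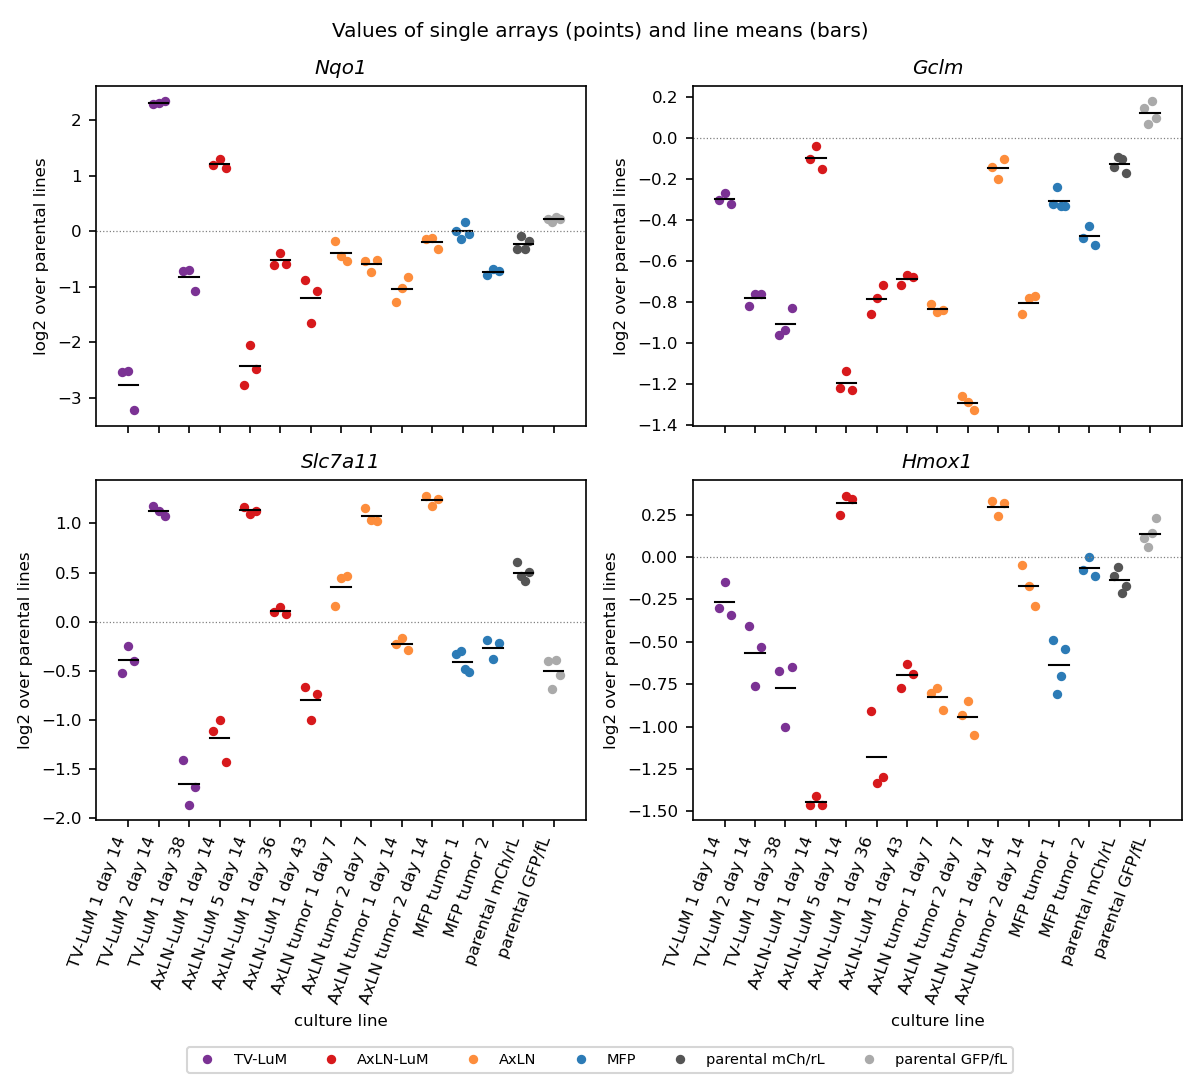
Log2 relative to the parental arrays of the plate (vertical axis, a scale of its own in each panel) for every array of 4 genes, with lines as columns, TV-LuM at the left and the parental lines at the right, and horizontal bars for line means. The 3 Nqo1 arrays of TV-LuM 2 day 14 and of TV-LuM 1 day 14 lie at opposite ends, and no Gclm array of a sub-clone reaches 0.

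Osgin1, an oxidative stress response gene, was at 1.54 in TV-LuM 2 day 14, well above its next sub-clone at 0.66, AxLN tumor 2 day 14. The other TV-LuM sub-clones had -0.21 (1 day 14) and 0.52 (1 day 38). Osgin1 was at 0.21, 0.56, -0.50 and -0.38 in AxLN-LuM 1 day 14, 5 day 14, 1 day 36 and 1 day 43, at -0.02, 0.45 and 0.57 in AxLN tumor 1 day 7, tumor 2 day 7 and tumor 1 day 14, and at 0.06 and 0.30 in MFP tumors 1 and 2, against -0.04 in parental 4T1-mCh/rL and 0.04 in parental 4T1-GFP/fL. Txnrd1, the cytosolic thioredoxin reductase, was called lower in 11 sub-clones and higher only in AxLN tumor 1 day 14 (0.17), with a lowest value of -0.54 in TV-LuM 2 day 14. Srxn1, sulfiredoxin, which repairs overoxidized peroxiredoxins, was called lower in 8 and higher in 1, from 0.42 in AxLN-LuM 1 day 14 to -0.96 in AxLN tumor 2 day 7.

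Slc7a11, the cystine importer that feeds glutathione synthesis, ranged over 2.89 or 7.39-fold. It stood at -0.39, 1.13 and -1.65 in TV-LuM 1 day 14, 2 day 14 and 1 day 38, and at -1.18, 1.13, 0.11 and -0.80 in AxLN-LuM 1 day 14, 5 day 14, 1 day 36 and 1 day 43. It stood at 0.35, 1.07, -0.23 and 1.23 in AxLN tumor 1 day 7, tumor 2 day 7, tumor 1 day 14 and tumor 2 day 14, and at -0.40 and -0.26 in MFP tumors 1 and 2, against 0.50 in parental 4T1-mCh/rL and -0.50 in parental 4T1-GFP/fL. The parental lines lay 1.00 apart, so the level that a sub-clone is set against matters for this gene. Against the mean of both lines 5 sub-clones were called higher and 7 lower, and against its own parental line MFP tumor 1 was 0.10 (SE 0.09) and MFP tumor 2 was 0.21 (SE 0.10) above 4T1-GFP/fL, neither of them called, and AxLN tumor 1 day 7, called higher against the mean, was -0.18 (SE 0.10) against 4T1-mCh/rL and not called. Against 4T1-mCh/rL, AxLN tumor 2 day 14 was 0.76 (SE 0.10) higher and AxLN-LuM 1 day 14 was 1.71 (SE 0.10) lower, both called.

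Gclm was called lower than the parental lines in all 13 sub-clones, and it was the only gene of the 11565 tested of which that was true (0.00865%). It stood at -0.30, -0.78 and -0.91 in TV-LuM 1 day 14, 2 day 14 and 1 day 38, and at -0.10, -1.20, -0.79 and -0.69 in AxLN-LuM 1 day 14, 5 day 14, 1 day 36 and 1 day 43. It stood at -0.84, -1.30, -0.15 and -0.80 in AxLN tumor 1 day 7, tumor 2 day 7, tumor 1 day 14 and tumor 2 day 14, and at -0.31 and -0.48 in MFP tumors 1 and 2, against -0.12 in parental 4T1-mCh/rL and 0.12 in parental 4T1-GFP/fL. The smallest of these calls, in AxLN-LuM 1 day 14, had an adjusted p of 0.0191 by limma and did not hold against its own parental line, where the difference was 0.02 (SE 0.04). Against its own line AxLN tumor 1 day 14 differed by -0.03 (SE 0.04), also not called, and the other 8 sub-clones with a known reporter were called lower, by 0.43 to 1.16. Against own lines 5 of all genes (0.0432%) were called lower in all 10 sub-clones with a known reporter, and Gclm was not among them. All 13 comparisons share the same 8 parental arrays, so they are not 13 independent results. Gclc, the catalytic subunit that pairs with Gclm, was called lower in 9 sub-clones and higher in none, down to -0.66 in AxLN tumor 2 day 7. Gss, glutathione synthetase, and Gsr, which returns oxidized glutathione to its reduced form, had narrow ranges of 0.77 and 0.57 and were called in 3 and 7 sub-clones.

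Mgst1, a microsomal glutathione transferase, was at 0.38, 0.46 and 1.22 in TV-LuM 1 day 14, 2 day 14 and 1 day 38, and at 0.36, 0.38, 0.94 and 0.09 in AxLN-LuM 1 day 14, 5 day 14, 1 day 36 and 1 day 43. Mgst1 was at 1.18, 1.84, -0.42 and 0.81 in AxLN tumor 1 day 7, tumor 2 day 7, tumor 1 day 14 and tumor 2 day 14, and at 0.94 and 0.96 in MFP tumors 1 and 2, against 0.16 in parental 4T1-mCh/rL and -0.16 in parental 4T1-GFP/fL. It was called higher in 11 sub-clones and lower in 1. Gsta4, the transferase for the lipid peroxidation product 4-hydroxynonenal, was at 0.68, 1.49 and -0.12 in the TV-LuM sub-clones in the same order, at 0.96, 0.90, 0.29 and -0.09 in the AxLN-LuM sub-clones, at 0.81, 0.70, -0.31 and 0.75 in the AxLN sub-clones and at 1.74 and 0.29 in the MFP sub-clones, against -0.17 in parental 4T1-mCh/rL and 0.17 in parental 4T1-GFP/fL. It was called higher in 10 and lower in 1.

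Mgst2, a second microsomal transferase, which can also make leukotriene C4, was at -0.30, 1.03 and -0.07 in the TV-LuM sub-clones in that order and at 0.22, 0.05, 0.66 and -0.60 in the AxLN-LuM sub-clones. Mgst2 was at 0.57, 0.28, -0.42 and 1.21 in the AxLN sub-clones and at 2.47 and 1.15 in the MFP sub-clones, against 0.03 in parental 4T1-mCh/rL and -0.03 in parental 4T1-GFP/fL. The value of MFP tumor 1 stood 1.26 above that of any other sub-clone. Gsto1, an omega-class transferase, was at 0.41, -0.02 and 0.64 in the TV-LuM sub-clones, at -1.10, 0.49, 0.40 and 0.00 in the AxLN-LuM sub-clones, at 0.35, 0.58, 0.32 and 0.35 in the AxLN sub-clones and at -0.42 and 0.55 in the MFP sub-clones, against 0.08 in parental 4T1-mCh/rL and -0.08 in parental 4T1-GFP/fL. Gsto1 was called higher in 9 sub-clones and lower in AxLN-LuM 1 day 14 and MFP tumor 1. Gstm1 was called higher in 6 and lower in none, but its arrays spread widely, with an SD of 0.29. Gstp1 ran the other way, lower in 9 and higher in MFP tumor 1 alone. Abcc1, a pump that exports glutathione conjugates, was called lower in 12 sub-clones, down to -0.90 in TV-LuM 2 day 14, and higher only in AxLN tumor 1 day 14 (0.16). Against own parental lines, which can be done for 10 sub-clones, Abcc1 was called lower in 4 and higher in 1. Abcc4, a related pump, was called lower than the mean of both lines in 6 and higher in 3.

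Pgd, the second dehydrogenase of the pentose phosphate pathway, was lowest in AxLN-LuM 5 day 14 (-1.37) and AxLN tumor 2 day 7 (-1.11), the same 2 sub-clones as for Gclm, and was called lower in 8 and higher in 1. Taldo1, transaldolase, was called higher in 5 and lower in 1, and Me1, malic enzyme, lower in 6 and higher in 2, down to -0.65 in TV-LuM 1 day 38. Cat, catalase, was called higher in 9 and lower in 3 within a range of 0.80, and Gpx4, which reduces lipid hydroperoxides, higher in 7 and lower in none within 0.47. Gpx1 was called higher in 4 and lower in 5, Sod2, the mitochondrial superoxide dismutase, lower in 8 and higher in 3, and Sod1 lower in 3 and higher in 1. Fth1, the ferritin heavy chain, was called lower in 5 and higher in 2.

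Set against the parental lines by limma in a fit of all 48 arrays with plate as a covariate, each sub-clone had 15 to 25 of the 30 genes called, more in proportion than among all genes in each of the 13. Among TV-LuM sub-clones 22 were called in 1 day 14 (42.3% of all genes), 24 in 2 day 14 (54.6%) and 21 in 1 day 38 (52.6%). Among AxLN-LuM sub-clones 20 were called in 1 day 14 (46.4%), 25 in 5 day 14 (63.4%), 25 in 1 day 36 (47.6%) and 21 in 1 day 43 (43.0%). Among AxLN sub-clones 23 were called in tumor 1 day 7 (48.9%), 23 in tumor 2 day 7 (54.9%), 16 in tumor 1 day 14 (33.1%) and 21 in tumor 2 day 14 (51.8%), and among MFP sub-clones 23 in tumor 1 (54.1%) and 15 in tumor 2 (40.2%). The smaller spread of these genes between arrays, given above, moves with these counts, and its part was not tested.

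The direction repeated across sub-clones for 13 of the 30 genes. Called lower in at least 9 of 13 sub-clones were 7 genes (Gclc, Gclm, Nqo1, Hmox1, Txnrd1, Gstp1 and Abcc1), where 7.51% of all genes were. Called higher in at least 9 were 6 genes (Gsta4, Gsto1, Mgst1, Cat, Nfe2l2 and Sqstm1), where 7.38% of all genes were. The limit of 9 was chosen after the values were seen. Against each sub-clone's own parental line, which can be done for 10 sub-clones, only Gclm and Txnrd1 were called lower in at least 7 of 10. That was so for 6.76% of all genes. By the same limit Gsta4, Gstm1, Gsto1, Nfe2l2 and Sqstm1 were called higher, where 7.18% of all genes were. With quantile normalization 6 genes were lower (7.51% of all genes) and 5 higher (7.12%) by the same limit of 9, Gclm in all 13. With the arrays marked removed left out, 9 genes were called lower in at least 7 of 11 sub-clones (12.7% of all genes) and 5 higher (11.1%), and 21 genes of all those tested, Gclm among them, were lower in all 11.

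**Figure D3:**
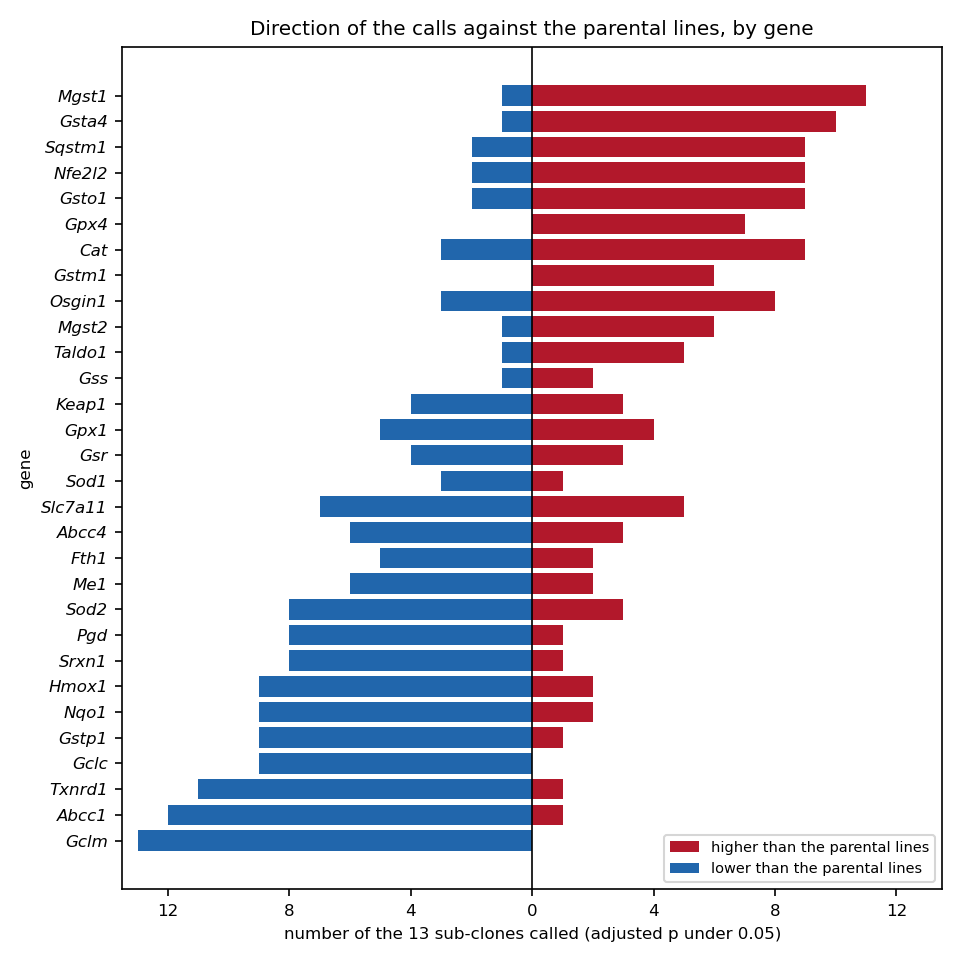
Number of the 13 sub-clones in which each of the 30 genes tested was called higher (right of 0) or lower (left of 0) than the mean of both parental lines at an adjusted p under 0.05 by limma. Gclm was called lower in 13 and Abcc1 in 12, and Mgst1 was called higher in 11 and Gsta4 in 10. Against own parental lines, possible for 10 sub-clones and not shown, Gclm was called lower in 8 and Abcc1 in 4. Mgst1 was then called higher in 6 and Gsta4 in 7.

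The parental lines differed from each other in 10 of the 30 genes by limma, where 12.8% of all genes did. Slc7a11 read 204.8 to 229.0 intensity units in the 4 arrays of 4T1-mCh/rL and 92.3 to 122.5 in the 4 arrays of 4T1-GFP/fL, without overlap, a difference of 1.00 (SE 0.08, adjusted p = 9.5e-04, limma with plate as a covariate). Taldo1 was also higher in 4T1-mCh/rL, by 0.36 (SE 0.04, adjusted p = 0.00416). The other 8 were lower in 4T1-mCh/rL, namely Nqo1 (-0.44), Gsta4 (-0.34), Hmox1 and Abcc4 (both -0.27), Gclm (-0.25), Abcc1 (-0.22), Txnrd1 (-0.20) and Gstm1 (-0.88). The Gstm1 call had an SE of 0.23 and an adjusted p of 0.0497 and included 1 array of 4T1-mCh/rL at -1.10. With 1 array left out at a time, 3 to 7 of the 30 genes were called, and the share of all genes is not given for these fits. Because AxLN and AxLN-LuM sub-clones derive from one line and MFP sub-clones from the other, line and tissue cannot be told apart in a comparison with MFP.

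Groups of sub-clones were compared next, with the sub-clone as the replicate and without the arrays marked removed, to ask whether sub-clones differ by the site they came from. The days differed with the site. They were 28 in MFP, 7, 7 and 14 in AxLN, 14, 36 and 43 in AxLN-LuM and 14, 14 and 38 in TV-LuM sub-clones. Site and day therefore cannot be told apart in the comparisons with MFP or AxLN. No gene of the 11565 was called in any of the 6 comparisons by limma, the antioxidant genes included. At an unadjusted p under 0.05 there were 4 of the 30 for AxLN minus MFP (6.95% of all genes), 7 for AxLN-LuM minus AxLN (11.9%), 2 for AxLN-LuM minus MFP (4.01%), 3 for TV-LuM minus MFP (8.69%), 1 for TV-LuM minus AxLN (11.3%) and 2 for TV-LuM minus AxLN-LuM (10.1%). With 2 or 3 sub-clones a group, a difference that misses the threshold is not shown to be absent. The median difference of the 30 genes was -0.12 for AxLN minus MFP (-0.01 for all genes), -0.04 for AxLN-LuM minus AxLN (0.02), -0.13 for AxLN-LuM minus MFP (0.01), -0.22 for TV-LuM minus MFP (-0.01), -0.04 for TV-LuM minus AxLN (0) and 0.01 for TV-LuM minus AxLN-LuM (-0.01).

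Slc7a11 had the lowest p of the set for AxLN-LuM minus AxLN and for AxLN minus MFP. In AxLN-LuM sub-clones it stood at -1.18, 0.11 and -0.80, against 0.35, 1.07 and 1.23 in AxLN sub-clones, without overlap, a difference of -1.51 (SE 0.35, adjusted p = 0.261). The AxLN sub-clones also did not overlap with the MFP sub-clones, at -0.44 and -0.26 once the removed array was left out, a difference of 1.24 (SE 0.39, adjusted p = 0.7). Set against each sub-clone's own parental line, that second difference was 0.23, while the first was -1.53. Within plates AxLN-LuM minus AxLN was -0.89 on the first plate (2 against 1 sub-clones) and -1.95 on the second (1 against 2). AxLN minus MFP was 0.65 (1 against 2) and 1.64 (2 against 1) on those plates, and MFP tumor 1 counts on both. With the sub-clones marked removed kept in, AxLN-LuM minus AxLN was -0.79. These groups then overlapped, with AxLN-LuM 5 day 14 at 1.13 and AxLN tumor 1 day 14 at -0.23. The share of all genes without overlap between groups is not given, and Slc7a11 was picked by its p. Groups without overlap are therefore no further result here.

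Sqstm1 had the second lowest p for AxLN-LuM minus AxLN, at -0.34, 0.32 and -0.37 in AxLN-LuM sub-clones against 0.58, 0.55 and 0.80 in AxLN sub-clones, a difference of -0.77 (SE 0.20, adjusted p = 0.275). With the removed sub-clones kept in it was -0.38, and the groups overlapped, with AxLN-LuM 5 day 14 at 1.16. Gclc had the opposite sign, at -0.01, -0.21 and -0.12 against -0.29, -0.66 and -0.57, a difference of 0.39 (SE 0.14, adjusted p = 0.366). Its groups also overlapped with the removed sub-clones kept in, where AxLN tumor 1 day 14 was at -0.05 and AxLN-LuM 5 day 14 at -0.16. For AxLN minus MFP, Pgd was at -0.40, -1.11 and -0.46 in AxLN sub-clones against -0.03 and -0.03 in MFP sub-clones (-0.63, SE 0.23, adjusted p = 0.711), and Gclm differed by -0.57 (SE 0.24, adjusted p = 0.711).

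Mgst2 had the lowest p of the set against MFP in both kinds of lung metastasis. It was at -0.30, 1.03 and -0.07 in TV-LuM sub-clones and at 0.22, 0.66 and -0.60 in AxLN-LuM sub-clones, against 2.45 and 1.15 in MFP sub-clones, which gave -1.58 (SE 0.52, adjusted p = 0.493) for TV-LuM minus MFP and -1.70 (SE 0.48, adjusted p = 0.999) for AxLN-LuM minus MFP. Both comparisons share the MFP sub-clones, and MFP tumor 1 lay far above MFP tumor 2. For AxLN-LuM minus MFP, Hmox1 differed by -0.79 (SE 0.30, adjusted p = 0.999, limma) and Gsr by -0.28 (SE 0.14, adjusted p = 0.999). The Hmox1 difference was -1.03 on the first plate (2 against 2 sub-clones) and -0.08 on the second (1 against 1).

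For the tail vein metastases, Abcc1 was at -0.29, -0.90 and -0.73 in TV-LuM sub-clones, against -0.23, -0.15 and -0.15 in AxLN-LuM sub-clones and -0.26, -0.33 and -0.13 in AxLN sub-clones. The difference was -0.46 (SE 0.17, adjusted p = 0.457) from AxLN-LuM and -0.40 (SE 0.17, adjusted p = 0.413) from AxLN. On the second plate these differences were -0.67 (2 against 1 sub-clones) and -0.59 (2 against 2). On the first they were -0.10 (1 against 2) and -0.03 (1 against 1). Against MFP, Gstp1 differed by -0.57 (SE 0.20, adjusted p = 0.493) and Txnrd1 by -0.33 (SE 0.12, adjusted p = 0.525). For TV-LuM minus AxLN, Pgd differed by 0.41 (SE 0.20, adjusted p = 0.482) and Slc7a11 by -1.19 (SE 0.59, adjusted p = 0.491). For TV-LuM minus AxLN-LuM, Txnrd1 differed by -0.26 (SE 0.11, adjusted p = 0.489) and Osgin1 by 0.84 (SE 0.38, adjusted p = 0.5). For Nqo1 every difference between groups was under its SE.

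**Figure D4:**
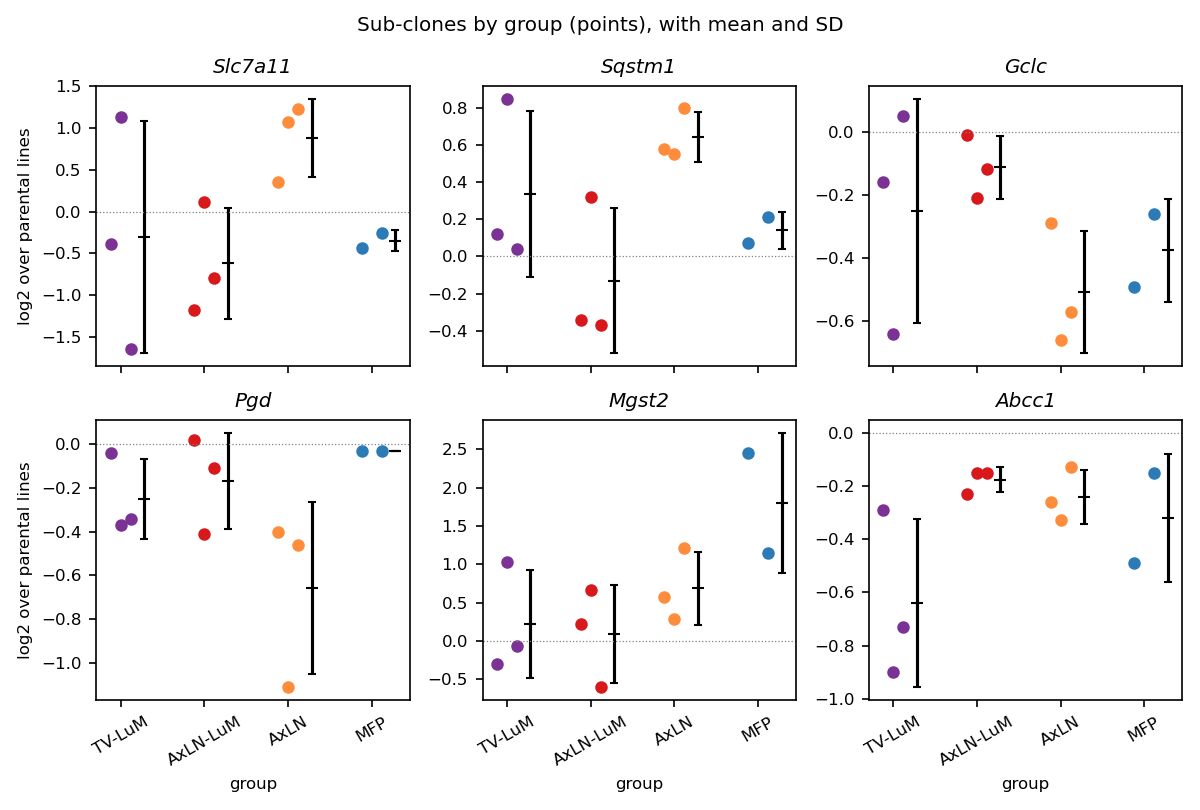
Log2 relative to the parental arrays of the plate (vertical axis, a scale of its own in each panel) for the 11 sub-clones not marked removed, by group from TV-LuM at the left to MFP at the right, for 6 genes with low p in a comparison of groups. Points are sub-clones, and the mark with bars to their right is the group mean with its SD (n = 3, 3, 3 and 2). The AxLN points lie above the AxLN-LuM points for Slc7a11 and Sqstm1 and below them for Gclc. For each of these genes the groups overlapped once the sub-clones marked removed were kept in. The genes were picked by p, so groups without overlap are no further result.

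Few pairs of these genes varied together across sub-clones. Over the 435 pairs of the 30 genes, Pearson's r across the 13 sub-clones had a median of 0.05, against 0.0 for all pairs of genes tested, and 12 pairs (2.8%) reached 0.7, against 1.7% of all pairs. These are descriptions of 13 points that share their parental arrays and 2 plates. The highest was Gclm with Pgd, at r = 0.90 (Spearman's rho 0.90, and r = 0.90 without the 2 sub-clones farthest from the Gclm median). Slc7a11 followed Sqstm1 at 0.88 (rho 0.95, and 0.93 without the 2 farthest), and Gclm followed Srxn1 at 0.83 (rho 0.82, and 0.78). Nqo1 followed Nfe2l2 at 0.78 (rho 0.91, and 0.60 without the 2 farthest). Slc7a11 and Gclc, which act in neighbouring steps of glutathione synthesis, ran opposite to each other, at -0.75 (rho -0.70, and -0.63). Without both sub-clones marked removed these 5 values of r were 0.90, 0.88, 0.83, 0.85 and -0.89 in the order given. These 5 pairs are a choice among the 435. Over the 13 sub-clones Hmox1 with Sod2 was at 0.84 (rho 0.86), above Gclm with Srxn1. Txnrd1 with Abcc1 was at 0.78 (rho 0.73), like Nqo1 with Nfe2l2. Gpx1 with Gsto1 (-0.82) and Srxn1 with Gsto1 (-0.80) were more negative than Slc7a11 with Gclc. The share of all pairs with so low an r is not given.

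The rest of the pathway was read from 5 further lists. Among other glutathione transferases 6 of 6 tested genes differed among the sub-clones, among other peroxide and thiol enzymes 18 of 19, among genes of glutathione supply and turnover 8 of 10, among partners and regulators of NRF2 11 of 11 and among other NRF2 targets 17 of 18, where 88.7% of all genes did. No gene of these lists was called between groups. Between the parental lines 4 of the 10 genes of glutathione supply and turnover were called (12.8% of all genes), and 1, 2, 1 and 2 genes of the other lists in the order of transferases, peroxide and thiol enzymes, partners of NRF2 and other targets.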

How the data were processed

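RNA of 48 cultures was hybridised to Affymetrix Mouse Gene 2.1 ST arrays. The authors summarized the arrays by RMA in Affymetrix Expression Console, plate by plate, scaled the 2 plates to each other and deposited intensities on a linear scale (1.11 to 10561.01, array sums 6414229 to 6658225). No 2 arrays were identical, and precision is limited by how many arrays and sub-clones there are. Of 41345 probe sets, 23521 had a single symbol in the platform annotation, 1820 several and 16004 none. Of those with one, 23328 matched RefSeq by Entrez ID and 20158 were protein-coding. Log2 values were computed here, the brightest probe set stood for a gene, and genes with a mean log2 of at least 3.106 (the 50th percentile of probe sets) were tested.

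Models were fitted by lmFit and eBayes of limma 3.58.1 under R 4.3.3, with Benjamini-Hochberg adjustment over 11565 genes and calls at 0.05. Groups were compared on sub-clone means after subtracting the parental mean of the plate (8 sub-clones for 3 groups, 11 with TV-LuM), and sub-clones and parental lines on arrays with plate as a covariate. In the fits on arrays p-values measure the spread between cultures of one line. Dim values are compressed by RMA and differences of dim genes are therefore understated. The scripts were tested on simulated data. Descriptions and counts used Python 3.11.15. Alternatives covered the baseline, plate, normalization, filter, probe set, removed arrays, replicate unit and omitted replicates. Values of every sub-clone are given for the 8 genes with the widest range and, for group comparisons, up to 3 genes with the lowest p, and Nfe2l2 and all sub-clone values of Gclm were added after their values were seen. Further lists give up to 4 genes by range. The members and lists were chosen with earlier results of these data known.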

Additional observations from a re-analysis of the deposited data

Results flagged for a closer look

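With 30 genes and 5 groups of 4 values each (the AxLN sub-clones, the AxLN-LuM sub-clones, the arrays of MFP tumor 1 and the arrays of either parental line), 150 groups were searched for a value far from the other 3, and 10 were found, where chance alone flags about 1 in 20. All values are log2 relative to the parental arrays of the plate. Gsta4 in the AxLN sub-clones had the widest such gap in absolute size, with AxLN tumor 1 day 14, marked removed, at -0.31 and the others at 0.70 to 0.81. Gstm1 in parental 4T1-mCh/rL had 1 array of the second plate at -1.10, with the others at -0.28 to -0.18, and the same array was also lowest for Gsta4, at -0.26. In the AxLN sub-clones, tumor 2 day 7 stood apart for Gsto1 at 0.58 and for Keap1 at 0.10. The other 5 lay within narrow ranges, with Gclm at -0.24, Txnrd1 at -0.14 and Gpx1 at 0.26 in single arrays of MFP tumor 1, Txnrd1 at -0.14 in an array of parental 4T1-mCh/rL and Gpx1 at 0.08 in an array of parental 4T1-GFP/fL.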

How the results depend on the processing

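With sub-clones as replicates, 0 of the 30 genes were called in each of the 6 comparisons of groups under every alternative run (no baseline, plate as a covariate, quantile normalization, no intensity filter, mean of probe sets, all mapped arrays, each sub-clone left out, and own parental line for the comparisons without TV-LuM). Few of all genes were called where that count is given. Plate as a covariate called 74 of all genes for AxLN-LuM minus AxLN (0.64%) and 35 for TV-LuM minus MFP (0.303%). It called 6 for TV-LuM minus AxLN (0.0519%), 5 for AxLN-LuM minus MFP (0.0432%) and 0 for the other comparisons. The own parental line called 1 for AxLN-LuM minus MFP (0.00865%). Treating arrays as replicates with the replicate number as a block called 9 genes for AxLN minus MFP (15.9% of all genes), 13 for AxLN-LuM minus AxLN (27.4%), 3 for AxLN-LuM minus MFP (6.8%), 9 for TV-LuM minus MFP (20.7%), 5 for TV-LuM minus AxLN (25.4%) and 10 for TV-LuM minus AxLN-LuM (23.3%), a test that takes cultures of one sub-clone for independent samples. A random block for the sub-clone in place of that called 2 (Pgd and Slc7a11) for AxLN minus MFP (0.847% of all genes), 5 (Gclc, Mgst1, Pgd, Slc7a11 and Sqstm1) for AxLN-LuM minus AxLN (4.6%), 1 (Pgd) for TV-LuM minus AxLN (3.83%) and 0 for the other comparisons. Same-numbered arrays did not deviate together (r from -0.083 to 0.074), so the numbers pair nothing. Between the parental lines 10 genes were called (12.8% of all genes). Without the intensity filter 3 were called, and with the replicate block 5. With 1 array left out the count was 3 to 7, in 7 of the 8 cases at most 6. The cause of these lower counts was not tested. Among the 13 sub-clones 30 genes differed under every alternative, except 29 without replicate 1. Against the parental lines 279 gene and sub-clone pairs were called, where 33.1% to 63.4% of all genes were called in a sub-clone. A screening rule after the methods, at least 1.5 or at most 0.5 times the parental mean with no overlapping arrays, was met by 53 pairs. Its further condition on the range was not applied. The replicate block gave 276 pairs, 1 replicate number left out 246 to 252, and own parental lines 194 over 10 sub-clones. The share of all genes is not given for the screening rule or for these alternatives, those between the parental lines included. These counts are therefore no result about the 30 genes. Against own lines 6 called pairs had the opposite sign and 0 of these were called, namely Slc7a11 in MFP tumor 1 (0.10), MFP tumor 2 (0.21) and AxLN tumor 1 day 7 (-0.18), Gclm (0.02) and Txnrd1 (0.01) in AxLN-LuM 1 day 14 and Taldo1 in AxLN-LuM 5 day 14 (-0.01). In analyses added after seeing the data, genes called lower in most sub-clones numbered 7 (7.51% of all genes), and 2 against own parental lines (6.76%). Signal over background limits Gpx2 and the low arrays of Nqo1 most.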

Other observations

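Outside the 36 genes, several genes of the pathway lists had wide ranges over the sub-clones. Abcc3, an export pump related to Abcc1, was at 3.40 in MFP tumor 1 and as low as -0.29 in AxLN-LuM 1 day 43, and the theta-class transferases Gstt1 (1.77) and Gstt3 (1.74) were also highest in MFP tumor 1, where Mgst2 and Gsta4 peaked. Aldh3a1, an aldehyde dehydrogenase, was highest in TV-LuM 2 day 14 at 2.84. Glrx, glutaredoxin 1, at 1.07 and Sesn2, sestrin 2, at 1.29 were highest there too, as were Nqo1, Osgin1 and Nfe2l2. The same sub-clone had the lowest Txnrd1 (-0.54) and Abcc1 (-0.9), with Gclc at -0.64 and Gclm at -0.78. Of the antioxidant genes tested, 4 were highest and 2 lowest in TV-LuM 2 day 14, where 7.8% and 8.6% of all genes were. In MFP tumor 1, 6 were highest (6.5% of all genes) and 1 lowest (6.0%). The median of the antioxidant genes in TV-LuM 2 day 14 was 0.05. The list of other NRF2 targets had a median of 0.13 in that sub-clone. Gstk1, a mitochondrial and peroxisomal transferase, was highest in TV-LuM 1 day 38 (2.1) and lowest in TV-LuM 1 day 14 (-0.67).

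The next 3 genes were picked after their values were seen. Cth, which makes cysteine from cystathionine, was 1.33 higher in parental 4T1-mCh/rL than in parental 4T1-GFP/fL, Chac1, which breaks down glutathione, was 1.07 higher, and Sesn2 was 0.92 higher. For AxLN minus MFP the same genes differed by 1.64, 0.87 and 0.75, and for AxLN-LuM minus AxLN by -1.13, -1.29 and -1.28, none of them called.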
